A study of Mus musculus with 5 samples.

Results

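The 10 genes described here encode the Janus kinases (Jak1, Jak2, Jak3, Tyk2), 3 of the transcription factors they activate (Stat3, Stat5a, Stat5b) and 3 inhibitors that shut the signal off again (Socs2, Socs3, Cish). They were taken by name from a deposited table of 39056 genes, whose Ensembl identifiers were paired with GENCODE symbols. All 10 passed the filter on low counts, which left 13467 tested genes.

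Many cytokine receptors of blood cells have no kinase of their own and carry Janus kinases on their inner side. When a cytokine joins the chains of such a receptor, the kinases phosphorylate each other and the receptor. STAT proteins dock there, are phosphorylated, pair up and act on genes in the nucleus. Cish and several Socs genes are among the genes switched on in this way, and their proteins bind receptors or kinases through an SH2 domain and damp the same signal, so that their transcripts are often read as a sign of recent STAT activity. In stem and progenitor cells Jak2 serves the erythropoietin receptor and others, and Jak3 serves the common gamma chain Il2rg, which interleukin-7 and related cytokines share.

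RNA had been sequenced from LSK cells (Lin−Sca-1+Kit+), the marrow fraction that holds blood stem cells and multipotent progenitors, sorted at postnatal day 15 with about 12000 cells per library. 3 libraries came from Gabbr1 null mutants and 2 from wild-type (WT) mice, all on a C57BL/6 background. Gabbr1 is the gene of the GABA-binding subunit of the GABA-B receptor, and the comparison asks what its loss changes in these cells. The extraction protocol in the labels gives n as 4 for each genotype, while the series design gives 3 null and 2 WT, which the libraries match. The labels do not give the deleted part of Gabbr1, the sex of the mice, or whether libraries came from separate animals or pools. The p-values therefore measure only how far these libraries differ among themselves, which may be technical. Levels are TMM-normalised CPM, the counts of a gene scaled to a common library size, and changes are log2 fold changes of null over WT from edgeR's quasi-likelihood test, with Benjamini-Hochberg adjusted p under 0.05 as the threshold.

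Total counts ranged from 6972753 to 8150774 per library. Gabbr1 had 289, 264 and 268 counts in null libraries 1, 2 and 3, against 402 and 403 in WT libraries 1 and 2, and fell in null by 0.59 on the log2 scale (SE 0.13, adjusted p in edgeR = 0.0361). Only leaving out null library 1 kept this call, and leaving out any of the other 4 libraries ended it. The sort marker Kit averaged 909 ± 66.2 CPM in null (SD, n = 3) and 1020 ± 37.7 CPM in WT (SD, n = 2). Null library 1 stood apart: it alone held the X-inactivation transcript Xist (22532 counts, against at most 21 in each other library), and its summed level of 10 mature neutrophil markers was 2198 CPM, against 587 and 135 CPM in null libraries 2 and 3 and 146 and 108 CPM in WT libraries 1 and 2. Summed B lineage markers (14 genes) were 1462 to 2091 CPM in null and 908 to 1277 CPM in WT, and 12 of the 14 rose while 1 fell. Summed endothelial and stromal markers were 299 to 390 CPM in null and 186 to 195 CPM in WT. Summed cartilage markers were 21.7 to 158 CPM in null and 0.123 to 0.284 CPM in WT. Col2a1, Acan and Col9a1 were at 0 in WT, and Sox9 was at 0 in every library. All 4 tested ones of the 7 listed cartilage genes rose, where 2.15% of all tested genes rose. Summed erythroid markers were 20.4 to 88.5 CPM in null and 12.2 to 12.9 CPM in WT, and summed megakaryocyte and platelet markers 80.3 to 87.3 CPM in null and 54.6 to 56.5 CPM in WT. The part of these cells in the levels of the 10 genes was not tested. Summed LSK and stem cell markers (9 genes) were 2947 to 3286 CPM in null and 3789 to 3939 CPM in WT. Of these 9 genes, 1 fell (Hlf) and 0 rose, where 0.334% of all tested genes fell. Slamf1 went the other way from the sum (log2 fold change 0.60, adjusted p in edgeR = 0.461). In bulk libraries such as these, fewer cells of a type and less RNA per cell cannot be told apart.

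Of the 10 genes, 0 passed the threshold in edgeR, against 2.48% of all tested genes (2.15% higher and 0.334% lower in null). At an unadjusted p under 0.05, 2 of the 10 (Jak3 and Cish) were lower and none was higher, where 12.8% of tested genes had such a p and 4.84% had it with a lower level in null. DESeq2 called 1 member, Jak3, and limma-voom called 0. The median log2 fold change was -0.13 over the 10 genes and -0.00449 over all tested genes, and 7 of the 10 were negative. In 1 of the 10, Jak3, the libraries of the groups did not overlap, against 29.2% of tested genes in either direction and 13.7% with null lower.

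**Figure D1:**
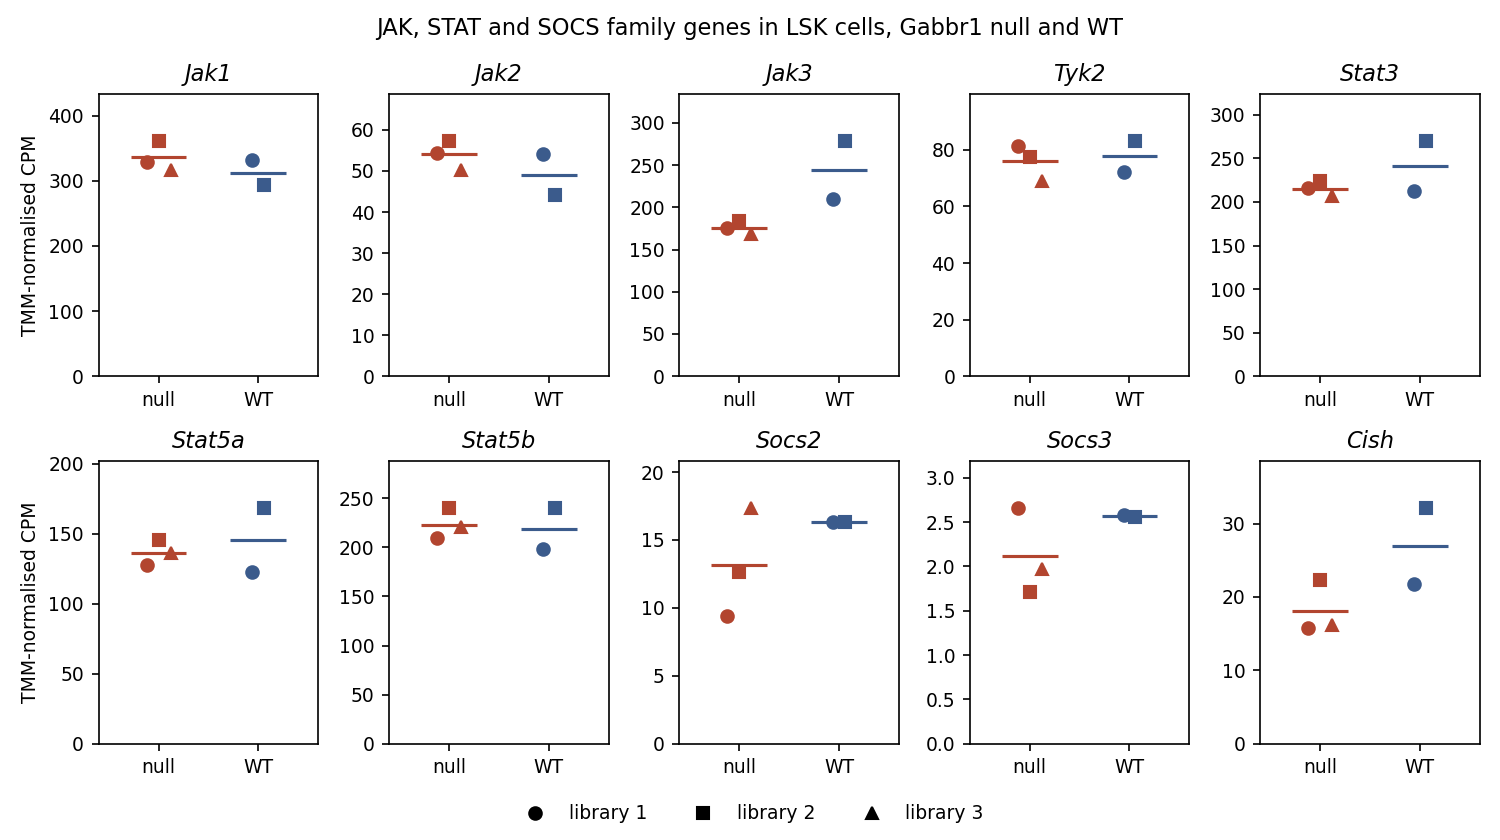
TMM-normalised CPM (vertical axis, each panel with its own scale from 0) of the 10 genes in 3 Gabbr1 null and 2 WT libraries; points are libraries and bars are group means. Jak3 is the panel in which every null library (168 to 184 CPM) lies below both WT libraries (210 and 279 CPM).

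Jak3, the kinase of receptors that share the common gamma chain (ENSMUSG00000031805.17, chromosome 8, 71676296 to 71690575, plus strand, mm10), had 175, 184 and 168 CPM in null libraries 1, 2 and 3, against 210 and 279 CPM in WT libraries 1 and 2. Every null library was lower than either WT library, and the WT libraries lay further apart than the null ones. Its mean was 176 ± 7.87 CPM in null (SD, n = 3) and 245 ± 48.5 CPM in WT (SD, n = 2). The log2 fold change was -0.48 ± 0.13 (SE), with a 95% interval of -0.75 to -0.20, an unadjusted p of 0.00276 and an adjusted p in edgeR of 0.0835, which did not pass. Jak3 did pass in DESeq2 (adjusted p = 0.0232), in edgeR with a robust fit (0.0281), without the filter on low counts (0.00558) and without WT library 1 (0.032), and over all 12 alternatives its adjusted p ranged from 0.00558 to 0.545. The direction was the same in all of them. Without the filter, many more genes passed in all (602 higher and 155 lower, against 289 and 45 with it). The difference in Jak3 was smallest without WT library 2, at -0.26 on the log2 scale. WT library 2 exceeded WT library 1 by 0.41 on the log2 scale, close to the null-over-WT difference itself. The gene Insl3 lies on the same strand within the annotated 3′ end of Jak3. It had 8 to 12 counts in null libraries and 16 to 19 in WT libraries, few beside the 1319 to 1396 and 1713 to 1963 counts of Jak3. Reads over both genes may have been given to either gene or to neither, so these counts do not measure the effect of the overlap. Summed B lineage markers were higher and summed LSK markers lower in the same null libraries. Summed T and NK lineage markers were 95.2 to 105 CPM in null and 97.4 to 115 CPM in WT, with Lck the most abundant. Cd3e and Gzma were at 0 in WT and in null libraries 2 and 3. The part of these cell types in the Jak3 level was not tested.

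**Figure D2:**
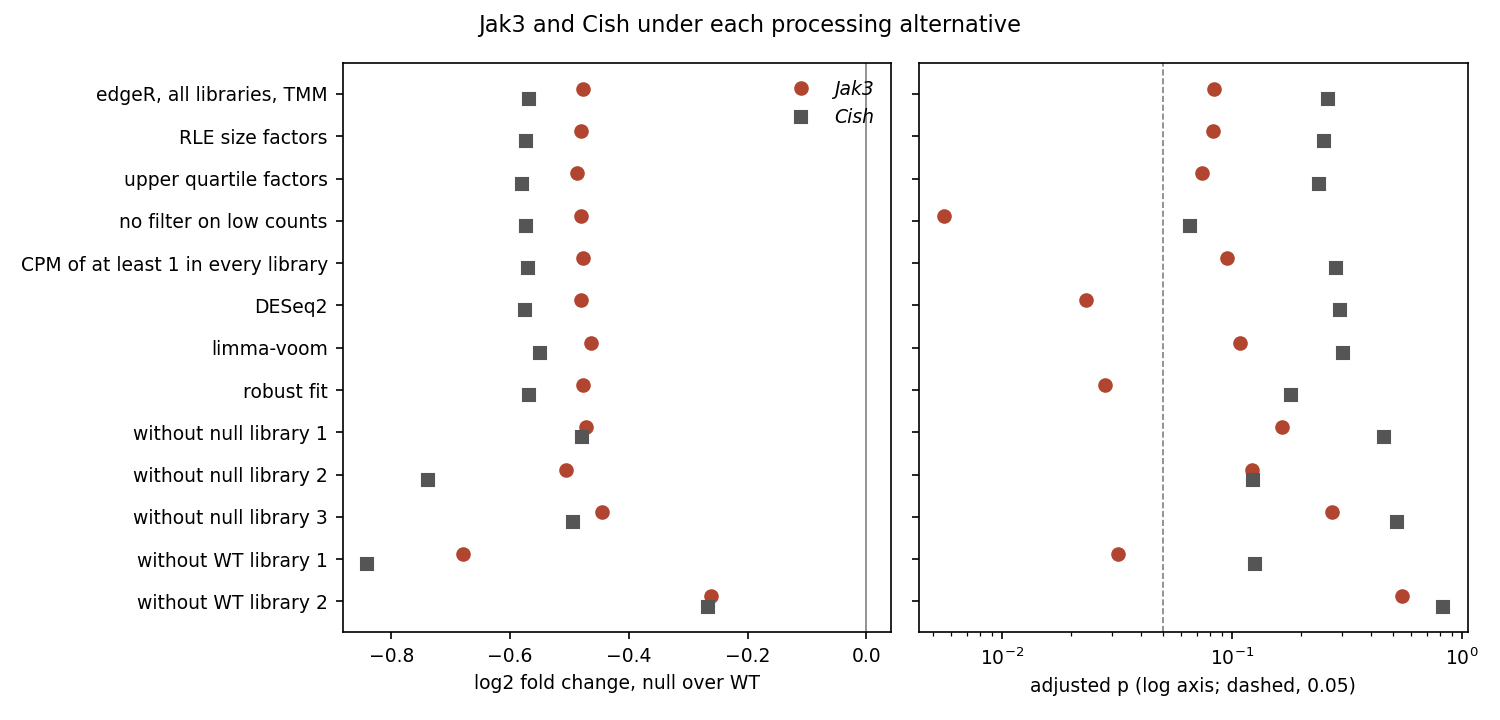
Log2 fold change of null over WT (left) and adjusted p on a log axis (right) of Jak3 and Cish in the edgeR fit of all libraries and in the 12 alternatives. Jak3 lies left of the dashed threshold of 0.05 in 4 alternatives and Cish in none, and both stay below 0 on the log2 scale throughout.

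Jak1, which partners Jak3, Jak2 or Tyk2 on many receptors (chromosome 4, 101152367 to 101265282), had 329, 361 and 317 CPM in null libraries 1, 2 and 3 and 332 and 293 CPM in WT libraries 1 and 2. The groups overlapped, and the log2 fold change was 0.10 ± 0.12 (SE, adjusted p in edgeR = 0.802). Jak2, the kinase of the erythropoietin and growth hormone receptors (chromosome 19, 29251828 to 29313080), was at 54.5, 57.4 and 50.2 CPM in null and 54.2 and 44.1 CPM in WT, with a log2 fold change of 0.14 ± 0.13 (SE, adjusted p in edgeR = 0.747). Tyk2, the kinase of type I interferon and interleukin-12 family receptors (chromosome 9, 21104068 to 21131243), had 81.5, 77.4 and 68.9 CPM in null and 72.2 and 83.3 CPM in WT, with a log2 fold change of -0.03 ± 0.12 (SE, adjusted p in edgeR = 0.949). The groups overlapped in all 3 kinases, and the 95% intervals of the fold, null over WT, were 0.896 to 1.29 for Jak1, 0.903 to 1.34 for Jak2 and 0.817 to 1.17 for Tyk2.

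Levels of different genes can be compared per length, here as CPM per kb of annotated exon. On that scale Jak1 and Jak3 made up most of the kinase transcripts. The share of Jak3 in the summed level of the 4 kinases was 32.4%, 32.1% and 33.0% in null libraries 1, 2 and 3, against 36.9% and 45.9% in WT libraries 1 and 2. The share of Jak1 was 45.1%, 46.7% and 46.0% in null and 43.1% and 35.7% in WT. Jak1 was the first kinase by level in the 3 null libraries and WT library 1, and Jak3 in WT library 2. Tyk2 and Jak2 each held 7.72% to 11.8% in every library. These shares are descriptions and were not tested.

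**Figure D3:**
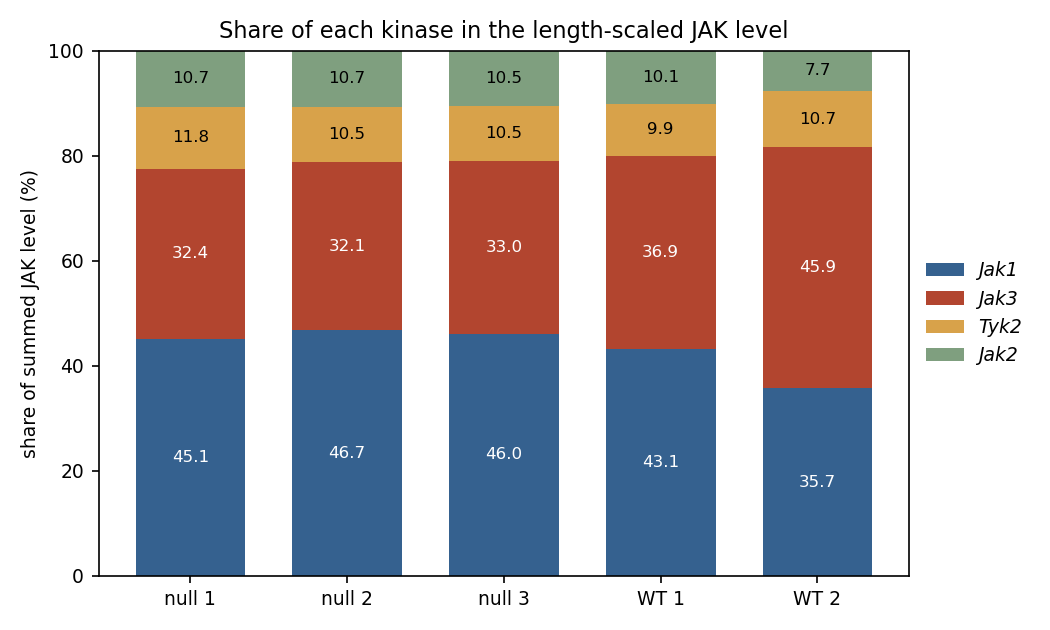
Share (percent, from 0 to 100) of each kinase in the summed CPM per kb of exon of Jak1, Jak3, Tyk2 and Jak2, 1 bar per library. Jak3 takes 32.1% to 33.0% in the null libraries and 36.9% and 45.9% in the WT libraries.

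The 3 STAT genes lie side by side on chromosome 11, Stat5b at 100780731 to 100850724, Stat5a at 100859351 to 100885169 and Stat3 at 100885098 to 100939540 (mm10). 8626 bp separate Stat5b from Stat5a, and the annotated ends of Stat5a and Stat3 overlap by 72 bp on opposite strands, where reads cannot be assigned if strand was not used. Stat5a and Stat5b are close relatives that carry signals from the interleukin-3 and interleukin-7 receptors, and Stat3 carries those of the interleukin-6 family and of the G-CSF receptor.

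Stat5b had 209, 240 and 221 CPM in null libraries 1, 2 and 3 and 198 and 240 CPM in WT libraries 1 and 2. Stat5a had 128, 145 and 136 CPM in null and 123 and 168 CPM in WT. Stat3 had 216, 224 and 207 CPM in null and 213 and 270 CPM in WT. For Stat5a and Stat5b every null library lay between the WT libraries, and for Stat3 null library 3 lay just below WT library 1. The log2 fold changes were 0.03 ± 0.12 for Stat5b, -0.09 ± 0.14 for Stat5a and -0.17 ± 0.12 for Stat3 (SE, adjusted p in edgeR = 0.96, 0.857 and 0.643). The 95% intervals of the fold were 0.851 to 1.22, 0.765 to 1.15 and 0.741 to 1.07. In these genes the WT libraries differed from each other by 0.28, 0.46 and 0.34 on the log2 scale, with WT library 2 higher each time, which is more than the null-over-WT difference. The ratio of Stat5a to Stat5b in CPM per kb was 0.474, 0.471 and 0.479 in null and 0.48 and 0.545 in WT. It depends on the length used: with the longest transcript its mean was 0.805 in null and 0.869 in WT.

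**Figure D4:**
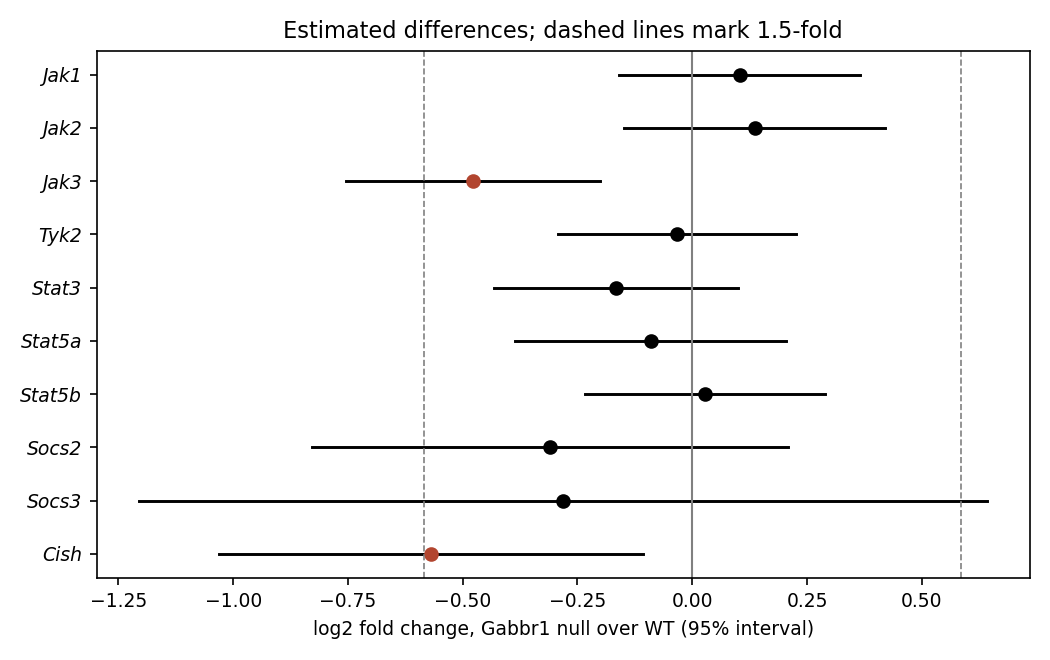
Log2 fold change of null over WT (horizontal axis) with its 95% interval for each of the 10 genes, Jak3 and Cish in red; dashed lines mark a change of 1.5-fold in either direction. The intervals of Jak1, Jak2, Tyk2, Stat3, Stat5a and Stat5b stay inside the dashed lines and that of Socs3 reaches from -1.21 to 0.64.

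The intervals give the changes that the edgeR fit of these libraries does not exclude. Their degrees of freedom come in part from all genes. Like the p-values, they measure only how far these libraries differ among themselves. In 6 of the 10 genes (Jak1, Jak2, Tyk2, Stat3, Stat5a and Stat5b) the whole 95% interval lay within a change of 1.5-fold either way, and in 8 of the 10, with Jak3 and Socs2 added, within 2-fold. Cish and Socs3 reached beyond 2-fold on the low side. The standard errors of the 10 genes had a median of 0.13 on the log2 scale, against 0.16 over all tested genes.

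The feedback genes were expressed at lower levels than the kinases and STATs, both in CPM and per kb of exon. Cish came nearest, with at most 5 CPM per kb against at least 8.76 for Jak2. Cish, an inhibitor that STAT5 induces and that acts at cytokine receptors (ENSMUSG00000032578.7, chromosome 9, 107296026 to 107302784), had 15.8, 22.2 and 16.2 CPM in null libraries 1, 2 and 3, against 21.7 and 32.1 CPM in WT libraries 1 and 2. Null libraries 1 and 3 were below both WT libraries, while null library 2 was slightly above WT library 1. The means were 18.1 ± 3.60 CPM in null (SD, n = 3) and 26.9 ± 7.34 CPM in WT (SD, n = 2). The log2 fold change was -0.57 ± 0.21 (SE), with a 95% interval of -1.03 to -0.11 and an unadjusted p of 0.0198. The adjusted p in edgeR of 0.261 did not pass, and none of the alternatives called Cish (adjusted p 0.0653 to 0.823). As with Jak3, the WT libraries differed from each other (0.56 on the log2 scale, WT library 2 higher), and without WT library 2 the log2 fold change was -0.27.

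Socs2, which restrains growth hormone and other STAT5 signals (chromosome 10, 95385362 to 95417180), had 9.44, 12.6 and 17.3 CPM in null libraries 1, 2 and 3, against 16.33 and 16.34 CPM in WT libraries 1 and 2. Null library 3 was above both WT libraries and the other two null libraries below them. The log2 fold change was -0.31 ± 0.24 (SE, adjusted p in edgeR = 0.66), and leaving out each library in turn moved it between -0.56 (without null library 3) and -0.12 (without null library 1).

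Socs3, the inhibitor that STAT3 induces at the interleukin-6 and G-CSF receptors (chromosome 11, 117966079 to 117970047), was close to the limit of what these libraries measure. Its counts were 20, 13 and 16 in null libraries 1, 2 and 3 and 21 and 18 in WT libraries 1 and 2. An exact Poisson 95% interval, which covers counting error only, ran from 6.92 to 22.2 for the lowest of these counts and from 13 to 32.1 for the highest, so the counting error alone spans the observed differences. The log2 fold change was -0.28 ± 0.42 (SE, adjusted p in edgeR = 0.859). The 95% interval of the fold ran from 0.434 to 1.56, so that these libraries do not tell apart true folds within this range.

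The promoters of Cish and Socs3 hold the letters that STAT dimers are known to bind. The palindrome TTCNNNGAA was searched, with its stricter form TTCCNGGAA, which it contains; both patterns equal their own reverse complement, so that 1 search covers both strands. The windows ran from 250 bases before to 50 bases after the gene start in RefSeq (build GRCm38.p6, the assembly of mm10). 9 of the 10 genes had 11 windows in all, Socs2 being the gene without one. Windows of Cish and Socs3 held the looser motif and that of Cish the stricter one, while among 32851 windows of all genes 8.3% held the looser and 1.15% the stricter motif. The sites are shown because these are the feedback genes whose transcripts STATs are known to raise; capitals mark the motif and each stretch is read 5′ to 3′ on the strand of its gene.
Cish, chr9:107296654-107296683, plus strand: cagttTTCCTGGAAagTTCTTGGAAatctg
Socs3, chr11:117969496-117969525, minus strand: cagccTTCTTAGAAgggaggggggggaaag
In Cish a tandem pair of sites began at bases 1 and 12 of the annotated transcript, and in Socs3 a single site began 154 bases before the start, both counted from the RefSeq start. GENCODE places the outermost start of these genes further upstream, by 633 bases for Cish and 681 bases for Socs3, so that both stretches lie inside the gene spans given above. A match of letters is a description and not a measure of binding.

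Across the whole families, per kb of exon, the 3 STAT genes described above and Stat6 stood over Stat4 and Stat2, and the 3 feedback genes lay below Socs4, Socs5 and Socs7 of the SOCS family. Stat5b had a median over the 5 libraries of 39.8 CPM per kb (range 35.8 to 43.3), and its range did not overlap the next, that of Stat3 (22.7, range 21.7 to 28.4). Stat3, Stat6 (21.3) and Stat5a (19.1) overlapped in turn, and Stat4 and Stat2 followed at medians of 11.3 and 9.49. In the SOCS family Socs4 (10.5), Socs5 (8.31) and Socs7 (6.83) came first. Cish (3.39, range 2.46 to 5) overlapped Socs6 (3.05), Socs2 (1.71, range 0.99 to 1.82) overlapped Socs1 (1.36), and Socs3 was lowest (0.885, range 0.592 to 0.92). The order depends on the annotated length: per kb of the longest transcript, Socs5 led Socs4 (11.5 and 10.5), Socs6 stood above Cish (5.73 and 4.63), and Stat5a reached 34.4 beside 35.7 for Stat3.

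**Figure D5:**
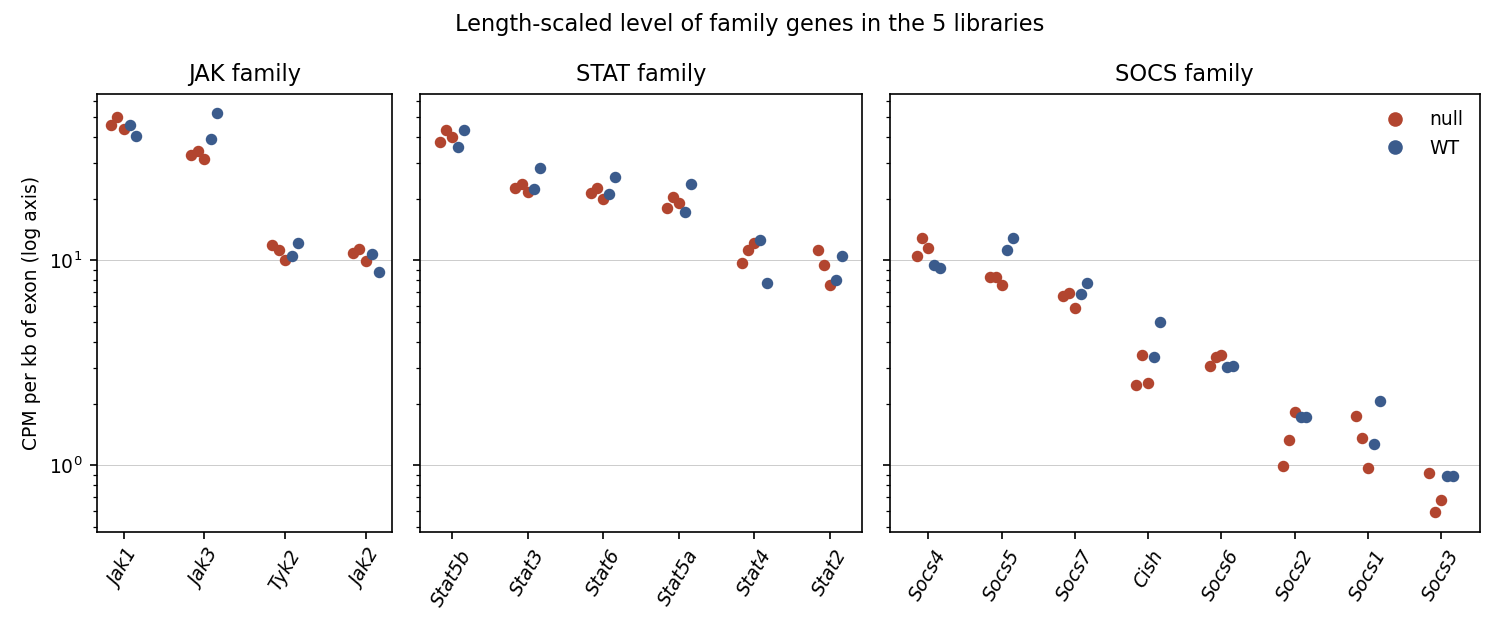
CPM per kb of exon (log axis) of JAK, STAT and SOCS family genes, ordered by median, in 3 null and 2 WT libraries; each point is a library. Kinases and the leading STATs lie between 8.76 and 52.1 CPM per kb, and Cish, Socs2 and Socs3 between 0.592 and 5 CPM per kb.

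Among the other family genes, 1 passed, where 2.48% of all tested genes passed. Socs5, an inhibitor linked to epidermal growth factor and interleukin-4 receptors (chromosome 17, 87107679 to 87137839), had 53.0, 53.3 and 48.6 CPM in null libraries 1, 2 and 3, against 72.0 and 82.4 CPM in WT libraries 1 and 2. All null libraries were below both WT libraries, and Socs5 fell in null (log2 fold change -0.58 ± 0.11 SE, adjusted p in edgeR = 0.0192), a call lost without null library 3 (0.0822) or WT library 2 (0.24). Of 3 other STATs (Stat2, Stat4 and Stat6) 0 passed in any of the 3 tools (edgeR, limma-voom, DESeq2), and 0 had an unadjusted p under 0.05 (log2 fold changes -0.13 to 0.11), and the lowest p was that of Stat6, the STAT of interleukin-4 (adjusted p in edgeR = 0.728). Of the other 4 SOCS genes 0 passed in these 3 tools, and Socs4, the 1 gene with an unadjusted p under 0.05, had a log2 fold change of 0.31 ± 0.12 (SE, adjusted p in edgeR = 0.273). Of 12 other negative regulators, such as the PIAS proteins, phosphatases and Cbl ligases, 0 passed in any of the 3 tools (edgeR, limma-voom, DESeq2), with an unadjusted p under 0.05 for 1 higher and 0 lower genes; Cblb, a ubiquitin ligase, had the lowest p (log2 fold change 0.33 ± 0.11 SE, adjusted p in edgeR = 0.165). Of 9 adaptors 0 passed in any of these tools and 0 had an unadjusted p under 0.05, Sh2b1 having the lowest (log2 fold change -0.26 ± 0.13 SE, adjusted p in edgeR = 0.445).

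Of 26 tested receptor genes reported here that signal through JAKs, 2 rose (Il7r and Lepr), where 2.15% of all tested genes rose. The median log2 fold change of the 26 was 0.02. Il7r, whose chain pairs with Il2rg and uses Jak1 and Jak3, rose in null, with 33.6, 25.7 and 24.9 CPM in null and 11.7 and 3.84 CPM in WT (log2 fold change 1.83 ± 0.33 SE, adjusted p in edgeR = 0.0119), a call lost without WT library 2 (0.13) and in the robust fit (0.163). The log2 fold change was 1.26 without WT library 2 and 2.85 without WT library 1. Il2rg itself had a log2 fold change of -0.22 ± 0.11 (SE, adjusted p in edgeR = 0.436). Lepr, the leptin receptor, was read 11 to 18 times in each null library and 0 times in WT. Set against a floor of 3 counts for the WT libraries together, it was at least 9.77-fold higher in null. It no longer passed when WT library 1 or 2 was left out (adjusted p in edgeR = 0.102 and 0.204). Il7r is also a gene of B lineage precursors and Lepr one of marrow stroma, and both marker sums given above were larger in null; their part in these receptor changes was not tested.

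Targets were counted over lists of known STAT5 and STAT3 targets and of immediate early genes. The lists were chosen with earlier results of these data known. Their counts beside the share of all tested genes are therefore descriptions and not tests. Of 12 tested STAT5 targets besides Cish and Socs2, 0 passed in any of the 3 tools (edgeR, limma-voom, DESeq2), with an unadjusted p under 0.05 for 1 higher and 1 lower gene, and the median log2 fold change was -0.09. Spry1, an inhibitor of receptor tyrosine kinase signals, came nearest, with 15.7, 13.8 and 15.5 CPM in null and 22.8 and 25.4 CPM in WT (log2 fold change -0.68 ± 0.17 SE, adjusted p in edgeR = 0.0544). It did pass in the robust fit (0.0369) and without the filter on low counts (0.0177), a fit that called many more genes in all. Of 13 tested STAT3 targets besides Socs3, 2 fell and none rose, with a median of -0.18, where 0.334% of all tested genes fell. Both, Fos (adjusted p in edgeR = 0.00807, not called in DESeq2) and Junb (adjusted p in edgeR = 0.035, not called in limma-voom), also belong to the immediate early class, switched on quickly by stimulation. Of 20 tested immediate early genes 10 fell (Fos, Junb, Jun, Egr1, Ier2, Nr4a1, Dusp1, Zfp36, Klf6 and Rgs1) and none rose, with a median of -0.85, where 0.334% of all tested genes fell. Of these 10, DESeq2 also called 7 (not Fos, Egr1 or Zfp36), limma-voom 8 (not Junb or Nr4a1) and the robust fit 2 (Klf6 and Rgs1). Without WT library 2, which leaves 1 WT library, the edgeR log2 fold changes of these 10 all stayed negative and all became smaller in size. They ran from -1.77 (Jun) to -0.43 (Ier2), against -2.24 (Nr4a1) to -0.73 (Klf6) with all libraries. DESeq2 and limma-voom were not run without that library.

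By profile over the 5 libraries, each gene centred on its own mean, the genes nearest to Cish among 9644 with a mean of at least 10 CPM were Trim47, Slc22a17 and Icosl, with root mean square differences of 0.0614, 0.0788 and 0.084 in log2 CPM. Those nearest to Socs2 were Armc7, Tubb4b-ps1 and Lipt2 (0.0659 to 0.075), and those nearest to Socs3 were Med29, Selenbp1 and Pcgf1 (0.0564 to 0.0621). These distances are a description over 5 libraries, and no test was made.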

How the data were processed

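Per the labels' protocols, libraries were made from 3.6 to 5 ng of RNA with a low-input kit and probe-based depletion, and read as paired 50 bp ends. Per the submitters' processing notes, reads were handled with featureCounts, STAR and the mm10 build. Versions, annotation release and strand setting are nowhere stated in the labels. The authors deposited raw counts for each gene, 1 column per library, with no scaling. Identifiers were matched to GENCODE M21 without their version (99.5% matched). 1 list entry, Cyr61, matched no gene. Some genes of the lists are not reported here and were left out of the list counts and sums. Exon lengths are unions over transcripts.

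Genes were kept with filterByExpr and tested by edgeR 4.0.16 (R 4.3.3) with TMM and genotype as the only term. CPM values divide by the total of the table times the TMM factor. Standard errors come from the F statistic and intervals from its total degrees of freedom (11.9 for the members). These are the residual ones plus the prior ones that edgeR estimates over all genes. Log2 CPM profiles used a prior count of 2. Alternatives were RLE and upper quartile factors, no filter or a stricter one (each library at 1 CPM or more), limma-voom 3.58.1, DESeq2 1.42.0, a robust fit and each library left out. The code was tested on simulated counts. Within groups, chi-square per degree of freedom between libraries was 7.61 to 12, so none was a copy.

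The members and lists were chosen with earlier results of these data known. Named were the members, Gabbr1, each list's called genes or else its lowest p, the most abundant gene of each marker list and the nearest profiles of Socs2, Socs3 and Cish; the text gives a selection. Kit, Xist, Insl3, Socs4, Il2rg and the single markers Cd3e, Gzma, Hlf, Slamf1 and Sox9 were named as checks or context after their values were seen. In 6 members with an exon overlap (Jak1, Jak3, Tyk2, Stat3, Stat5a, Cish), reads over the shared bases may have been given to either gene or to neither.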

Additional observations from a re-analysis of the deposited data

How the results depend on the processing

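No paired analysis was possible because libraries were numbered only by their place in the list and the labels pair none. Among the members, 9 of 10 were called in none of the 12 alternatives, and Jak3 was called lower, as the 1 member, with no filter, in DESeq2, in the robust fit and without WT library 1 (leave-one-out range 0 to 1); the cause was not tested. Other scalings, filters and tools moved the members' log2 fold changes by at most 0.04. Leaving out 1 library turned the sign of uncalled members: the range was -0.00523 to 0.28 for Jak2, -0.15 to 0.0707 for Tyk2, -0.34 to 0.0147 for Stat3, -0.32 to 0.15 for Stat5a, -0.12 to 0.17 for Stat5b and, outside the members, -0.28 to 0.0152 for Stat6. Over all genes, no filter gave 602 higher and 155 lower, the stricter filter 173 higher, and leaving out 1 library 32 to 316 higher and 0 to 51 lower. Among other pathway genes (2 higher, 11 lower), no filter gave 18 lower, the stricter filter 1 higher (it did not test Lepr), the robust fit 1 higher and 6 lower, and leaving out 1 library 0 to 3 higher and 0 to 14 lower. With the longest transcript as length, mean JAK shares were 49.5% for Jak1 and 31.4% for Jak3 in null, 7.76% in null and 6.54% in WT for Jak2, and the Stat5a to Stat5b ratio was 0.805 in null and 0.869 in WT. Where 1 WT library was left, the fit takes its spread from the null libraries. Socs3 had the fewest counts of the members, 13 to 21 per library.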
